A study of Homo sapiens with 6 samples.

Results

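Cholesterol synthesis was read from 7 genes, *HMGCS1*, *IDI1*, *FDFT1*, *SQLE*, *LSS*, *INSIG1* and *SREBF2*, of the 58735 genes in the deposited expression table. The rows were taken by gene symbol, and each symbol was found once. The genes had been picked with their values in these libraries already known, so their differences between the groups are given as a description, with no test. They did not move together. In *RRM2*-OE-TPC-1, the mRNA of *INSIG1* was at 0.459 and that of *SREBF2* at 0.601 of its TPC-1 mean, *FDFT1* and *LSS* were lower by less, *HMGCS1* and *IDI1* were higher, and *SQLE* did not differ beyond its spread.

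Cells make cholesterol from acetyl-CoA through mevalonate, isoprenoid pyrophosphates, squalene and lanosterol. The transcription factor SREBP2, encoded by *SREBF2*, is made as a precursor bound to SCAP in the membrane of the endoplasmic reticulum, and INSIG proteins hold this complex there while sterols are plentiful. When sterols fall, the complex moves to the Golgi, proteases release the active factor, and it raises transcription of the synthesis enzymes and of *INSIG1* itself. Activity of SREBP2 is thus set largely by processing of the protein, which mRNA values do not measure.

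TPC-1 is an established line of human papillary thyroid carcinoma. The libraries compared were 3 of wild strain TPC-1 and 3 of *RRM2*-OE-TPC-1, a TPC-1 strain that overexpresses *RRM2*, the gene of a subunit of ribonucleotide reductase, and the comparison asked how that overexpression alters transcription. According to the study's methods, a full-length *RRM2* fragment was placed under a CMV promoter in the lentiviral vector LV18, infected cells were selected with puromycin, and each strain was assayed in biological triplicate. No vector or selection is given for the wild strain, and libraries of cells with an empty vector were not analysed here, so the effects of *RRM2*, of infection and of selection cannot be told apart. The genotype label of *RRM2*-OE-TPC-1 replicate 2 reads RRM3 and that of replicate 3 reads RRM4, although both titles name RRM2.

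*RRM2* itself had between 8.52 and 9.17 FPKM (fragments per kilobase of gene, scaled to a depth value per library) in the TPC-1 libraries. In the *RRM2*-OE-TPC-1 libraries it had between 47.2 and 50.4 FPKM, from endogenous and vector copies together. Reads on genes numbered 14317091 to 17084067 per library. No library stood apart within its group: correlations of log2 values across genes were 0.9589 to 0.9630 within groups and 0.8987 to 0.9068 between them. Of the thyroid markers, *PAX8* (56.3 to 70.8 FPKM) and *FOXE1* (3.10 to 4.41 FPKM) were present, *NKX2-1* was at 0, and *TG*, *TSHR* and *SLC5A5* did not pass 0.113 FPKM in any library. The summed level of 6 epithelial markers was 42.9 to 47.1 FPKM in TPC-1 and 88.4 to 90.8 FPKM in *RRM2*-OE-TPC-1, most of it *KRT18*. The mean of *KRT18* went from 41.2 to 85.2 FPKM and that of *KRT8* from 2.56 to 3.48 FPKM, while that of *KRT7* went from 1.18 to 1.01 FPKM. *EPCAM*, *CDH1* and *KRT19* did not pass 0.125 FPKM in any library, so the sum does not stand for epithelial markers in general. The sum of 4 endothelial markers was 0.873 to 1.05 and 0.0667 to 0.115 FPKM, with *KDR* at 0. In TPC-1 it was nearly all *PECAM1*, whose mean was 0.924 FPKM there and 0.0588 FPKM in *RRM2*-OE-TPC-1. *VWF*, very low in both groups, went the other way, from a mean of 0.00577 to 0.0325 FPKM. Sums of 6 fibroblast markers were 2.78 to 3.16 and 2.78 to 2.94 FPKM, with *COL1A2*, *COL3A1* and *DCN* at 0 in each library. Sums of 5 leukocyte markers were 0 in each TPC-1 library and at most 0.0355 FPKM in *RRM2*-OE-TPC-1, with *CD3E* and *LYZ* at 0. The part of these marker differences in the results was not tested. In such bulk RNA, fewer cells that express a gene and less of its mRNA per cell cannot be told apart.

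Sequence before the transcription start was read for the members as the place where SREBP2 and its partner NF-Y, which binds CCAAT boxes, act on promoters. RefSeq windows of 250 bases before a start on GRCh38.p14 were matched for 5 of the 7 genes, *SREBF2*, *INSIG1*, *HMGCS1*, *IDI1* and *LSS*, with 8 windows in all. The stretches printed here end where the gene begins in the deposited table. They show the 2 members with the largest decrease and 1 that was higher, each read on the strand of its gene. *SREBF2* is printed from chr22:41832855-41833078 (plus strand), *INSIG1* from chr7:155297628-155297775 (plus strand) and *HMGCS1* from chr5:43313513-43313662 (minus strand). Capitals mark the sterol response element core TCACNCCAC and the CCAAT box, here as its reverse complement ATTGG.

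*SREBF2*: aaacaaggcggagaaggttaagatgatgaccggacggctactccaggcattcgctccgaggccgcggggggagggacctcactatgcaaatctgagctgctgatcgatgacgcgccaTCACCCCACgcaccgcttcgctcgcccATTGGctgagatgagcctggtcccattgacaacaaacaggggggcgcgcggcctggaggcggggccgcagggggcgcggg
*INSIG1*: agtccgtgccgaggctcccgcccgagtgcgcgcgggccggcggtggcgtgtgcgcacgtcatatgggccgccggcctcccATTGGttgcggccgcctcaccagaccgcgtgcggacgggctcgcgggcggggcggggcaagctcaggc
*HMGCS1*: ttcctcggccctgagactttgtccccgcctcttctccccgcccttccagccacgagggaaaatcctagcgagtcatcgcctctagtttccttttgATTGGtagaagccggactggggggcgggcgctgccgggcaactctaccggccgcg

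The sterol response element core was found in 1 of the 5 members with a window, *SREBF2*, where it starts 133 bases before the transcription start, followed by a CCAAT box on the other strand at 106 bases. Of all 27305 genes with a window, 1.09% held this core on either strand. A CCAAT box was found in 5 of the 5 members, and in 37.0% of all genes with a window. In *INSIG1* it starts 170 bases before the transcription start, and in *HMGCS1* at 155 and 100 bases, the latter past the end of the printed stretch. These are matches of letters, and no binding was measured. Sterol response elements spelled otherwise or lying outside the 250 bases were not searched for, so a member without a match may still hold one.

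Control of the pathway was read from *SREBF2* and *INSIG1*, which differed most. *SREBF2* (ENSG00000198911) lies on chromosome 22 from 41833079 to 41907308 of GRCh38, on the plus strand. Its level was 60.4, 58.6 and 61.9 FPKM in TPC-1 replicates 1 to 3, and 37.6, 36.6 and 34.6 FPKM in *RRM2*-OE-TPC-1. Each *RRM2*-OE-TPC-1 library was thus well under each TPC-1 library. The means were 60.3 ± 1.67 and 36.3 ± 1.52 FPKM (SD, n = 3 each), a fall to 0.601 of the TPC-1 level and a log2 fold change of -0.73 (standard error, SE, 0.0408). Exons of *SREBF2-AS1*, at a mean of 2.25 FPKM on the opposite strand, cover 3.71% of its exon bases, and the sources used here do not say whether counting used strand.

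*INSIG1* (ENSG00000186480) lies on chromosome 7 from 155297776 to 155310235, on the plus strand, and encodes the endoplasmic reticulum protein that retains the SCAP complex. Its level was 25.7, 24.1 and 25.6 FPKM in TPC-1, and 11.7, 11.7 and 11.2 FPKM in *RRM2*-OE-TPC-1. The groups were far apart, and the *RRM2*-OE-TPC-1 libraries lay close to each other. The means were 25.2 ± 0.886 and 11.5 ± 0.276 FPKM (SD, n = 3 each), and the log2 fold change was -1.12 (SE 0.0412). *INSIG1* was the only one of the 7 with an absolute log2 fold change over 1. Relative to *SREBF2* in the same library, its FPKM was 0.417 ± 0.00728 in wild strain and 0.319 ± 0.00613 in overexpressing cells (SD, n = 3 each), so that it was lower also in relation to the factor's own mRNA.

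**Figure D1:**
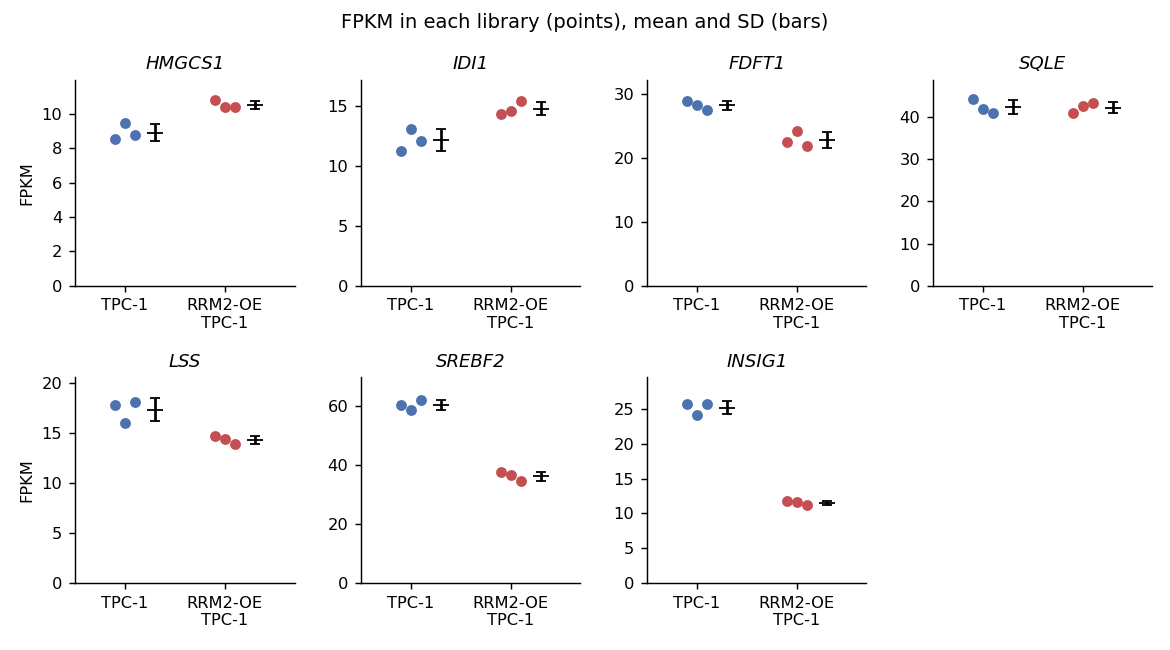
FPKM of each of the 7 genes in each library (points, replicates 1 to 3 from left to right), with the mean and SD (n = 3) beside them. Axes start at 0. *INSIG1* and *SREBF2* show the widest gaps, with means of 25.2 and 11.5 FPKM and of 60.3 and 36.3 FPKM, whereas the points of *SQLE* overlap between the groups.

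The early, mevalonate arm was represented by *HMGCS1* and *IDI1*, both higher in *RRM2*-OE-TPC-1. *HMGCS1* (ENSG00000112972), on chromosome 5 from 43289395 to 43313512 on the minus strand, encodes the cytosolic HMG-CoA synthase, an early step of the pathway. Its level was 8.51, 9.43 and 8.74 FPKM in TPC-1, and 10.8, 10.4 and 10.4 FPKM in *RRM2*-OE-TPC-1. The libraries did not overlap, but the gap between the nearest was narrow: counting alone gave a 95% interval of 8.77 to 10.1 FPKM for TPC-1 replicate 2 and of 9.69 to 11.1 FPKM for *RRM2*-OE-TPC-1 replicate 2. The means were 8.90 ± 0.480 and 10.5 ± 0.221 FPKM (SD, n = 3 each), with a log2 fold change of 0.24 (SE 0.0511).

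*IDI1* (ENSG00000067064), on chromosome 10 from 1039152 to 1049170 on the minus strand, encodes the isomerase that converts isopentenyl pyrophosphate to dimethylallyl pyrophosphate, the primer of isoprenoid chains. Its level was 11.2, 13.1 and 12.0 FPKM in TPC-1, and 14.3, 14.5 and 15.4 FPKM in *RRM2*-OE-TPC-1. TPC-1 replicate 2 came closest to the other group, and its counting interval of 12.2 to 13.9 FPKM met that of *RRM2*-OE-TPC-1 replicate 1, 13.4 to 15.3 FPKM. The means were 12.1 ± 0.911 and 14.7 ± 0.561 FPKM (SD, n = 3 each), with a log2 fold change of 0.28 (SE 0.0603). Antisense genes cover 15.0% of the exon bases of *HMGCS1* and 14.8% of those of *IDI1*, at means of 0.0622 and 0.181 FPKM.

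In the later arm, from squalene to sterols, *FDFT1* and *LSS* were lower in *RRM2*-OE-TPC-1 and *SQLE* between them was level. *FDFT1* (ENSG00000079459), on chromosome 8 from 11795573 to 11839309 on the plus strand, encodes squalene synthase, which commits farnesyl pyrophosphate to sterols. Its level was 28.9, 28.3 and 27.5 FPKM in TPC-1, and 22.4, 24.2 and 21.8 FPKM in *RRM2*-OE-TPC-1. No libraries of the groups overlapped, nor did their counting intervals. The means were 28.2 ± 0.688 and 22.8 ± 1.21 FPKM (SD, n = 3 each), with a log2 fold change of -0.31 (SE 0.0454).

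*SQLE* (ENSG00000104549), on chromosome 8 from 124998497 to 125022283 on the plus strand, encodes squalene monooxygenase, a step at which flux through the pathway is controlled. Its level was 44.2, 41.9 and 40.9 FPKM in TPC-1, and 40.8, 42.5 and 43.2 FPKM in *RRM2*-OE-TPC-1. High and low libraries were found in both groups. The means of 42.3 ± 1.68 and 42.2 ± 1.24 FPKM (SD, n = 3 each) differed by a log2 fold change of -0.0054 (SE 0.0405), whose sign changed with the library left out (-0.030 to 0.026).

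*LSS* (ENSG00000160285), on chromosome 21 from 46188141 to 46228824 on the minus strand, encodes lanosterol synthase, which closes the sterol rings. Its level was 17.8, 16.0 and 18.1 FPKM in TPC-1, and 14.7, 14.4 and 13.9 FPKM in *RRM2*-OE-TPC-1. TPC-1 replicate 2 was the low library of its group, and its counting interval of 15.3 to 16.7 FPKM met that of *RRM2*-OE-TPC-1 replicate 1, 13.9 to 15.4 FPKM. The means were 17.3 ± 1.15 and 14.3 ± 0.390 FPKM (SD, n = 3 each), with a log2 fold change of -0.27 (SE 0.0542).

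Across the 7 genes, 2 were higher and 4 were lower in *RRM2*-OE-TPC-1 with no overlap of libraries, and 1 overlapped. Among all 13621 tested genes, 37.3% were higher and 35.0% were lower with no overlap, and since the 7 were picked on this contrast nothing is read from the comparison. The median log2 fold change was -0.27 over the 7 and 0.011 over all tested genes. The number of reads behind a value ranged from 619 for *INSIG1* to 7614 for *SREBF2*, for which exact Poisson intervals, which cover counting error only, spanned about ±7.96% and ±2.25% of the value.

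Levels per length can be ranked within each group. In TPC-1 the order was *SREBF2*, *SQLE*, *FDFT1*, *INSIG1*, *LSS*, *IDI1* and *HMGCS1*, and no neighbours in it overlapped. In *RRM2*-OE-TPC-1 *SQLE* was first, followed by *SREBF2*, *FDFT1*, *IDI1*, *LSS*, *INSIG1* and *HMGCS1*, and *IDI1* and *LSS* overlapped. *INSIG1* thus went from the fourth place to the sixth. The ratio of *SQLE* to *INSIG1* was 1.68 ± 0.0786 in wild strain and 3.66 ± 0.187 in overexpressing cells (SD, n = 3 each).

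The other genes of cholesterol handling were read from 6 lists holding 55 genes beside the 7, of which 48 were tested by limma. A gene was called where adjusted p did not exceed 0.05 and the fold change reached 1 in either direction on the log2(FPKM + 0.1) scale, on which a change at low FPKM is understated. Of the 48, 2 were called higher and 5 lower (4.17% and 10.4%), beside 4.48% and 6.97% of all tested genes. On adjusted p alone, 17 rose and 19 fell (35.4% and 39.6%), beside 34.9% and 32.7% of all tested genes. Scaled to library totals, 12 of the 48 rose and 23 (47.9%) fell, beside 31.3% and 36.5% of all tested genes. Because 9207 of the 13621 tested genes passed on adjusted p alone, the size of a difference says more here than the call. The median log2 fold change of the 48 was -0.074.

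Of the 16 other tested enzymes of both synthesis arms, 6 rose and 5 fell on adjusted p alone (37.5% and 31.2%, beside 34.9% and 32.7% of all tested genes). Of the rest, 5 did not pass. With the threshold on the fold change 1 of the 16 was called, and it was lower (6.25%, beside 6.97%). Scaled to library totals, 4 rose and 6 fell, as *LBR* and *MSMO1* no longer passed (adjusted p = 0.241 and 0.340 from limma) and *CYP51A1* did at 0.0415. Those described here are more than the rule for named genes covers. In the mevalonate arm *ACAT2*, the acetoacetyl-CoA thiolase that opens the pathway, rose from 15.3 ± 0.503 to 24.9 ± 1.21 FPKM (SD, n = 3 each; log2 fold change 0.70, limma adjusted p = 4.76e-06). Of the later steps, *MVK* had a log2 fold change of -0.12 and *PMVK* of 0.12 (limma adjusted p = 0.233 and 0.247), *MVD* rose by 0.17 (adjusted p = 7.15e-03), and *FDPS*, which makes farnesyl pyrophosphate, fell by 0.40 (adjusted p = 7.06e-05). An antisense gene, *RUSC1-AS1* at 4.61 FPKM, covers 18.6% of the exon bases of *FDPS*. Within this arm, then, the enzymes before and after *HMGCS1* and *IDI1* went both ways.

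In the later arm *TM7SF2*, a sterol C14-reductase, had 6.01, 5.90 and 6.98 FPKM in TPC-1 and 2.21, 2.02 and 2.25 FPKM in *RRM2*-OE-TPC-1, with no overlap. It was the only called enzyme of either arm (log2 fold change -1.50, SE 0.0857, limma adjusted p = 2.23e-06). *LBR*, which carries the same activity, was at 34.2 ± 1.54 and 37.3 ± 0.986 FPKM (SD, n = 3 each; log2 fold change 0.12, limma adjusted p = 0.0295), so that the sum of both reductases was mostly *LBR* in either group. *NSDHL*, of the demethylation at C4, rose by 0.69 and the isomerase *EBP* by 0.54 on the log2 scale (limma adjusted p = 5.15e-06 and 4.49e-05), and *MSMO1* rose by 0.10 (adjusted p = 0.0356). *HSD17B7* and *SC5D* did not pass, with log2 fold changes of -0.057 and 0.080 (limma adjusted p = 0.630 and 0.356). The reductase *DHCR7* fell from 33.2 ± 1.92 to 25.1 ± 1.40 FPKM (SD, n = 3 each; log2 fold change -0.40, limma adjusted p = 3.03e-04). *CYP51A1*, at 1.93 ± 0.131 and 1.66 ± 0.0732 FPKM (SD, n = 3 each), did not pass (log2 fold change -0.20, limma adjusted p = 0.0911). Its low level is uncertain, because 79.4% of its exon bases are shared on the same strand with *AC000120.2*, which was listed at 0 in each library.

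Added up, the 22 enzymes of both arms, members included, had 500.4 ± 9.77 FPKM in wild strain and 488.6 ± 1.51 FPKM in overexpressing cells (SD, n = 3 each). The 5 enzymes among the 7 genes summed to 108.9 ± 1.66 and 104.6 ± 1.46 FPKM. The ratios of the *RRM2*-OE-TPC-1 to the TPC-1 mean were 0.976 and 0.960.

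**Figure D2:**
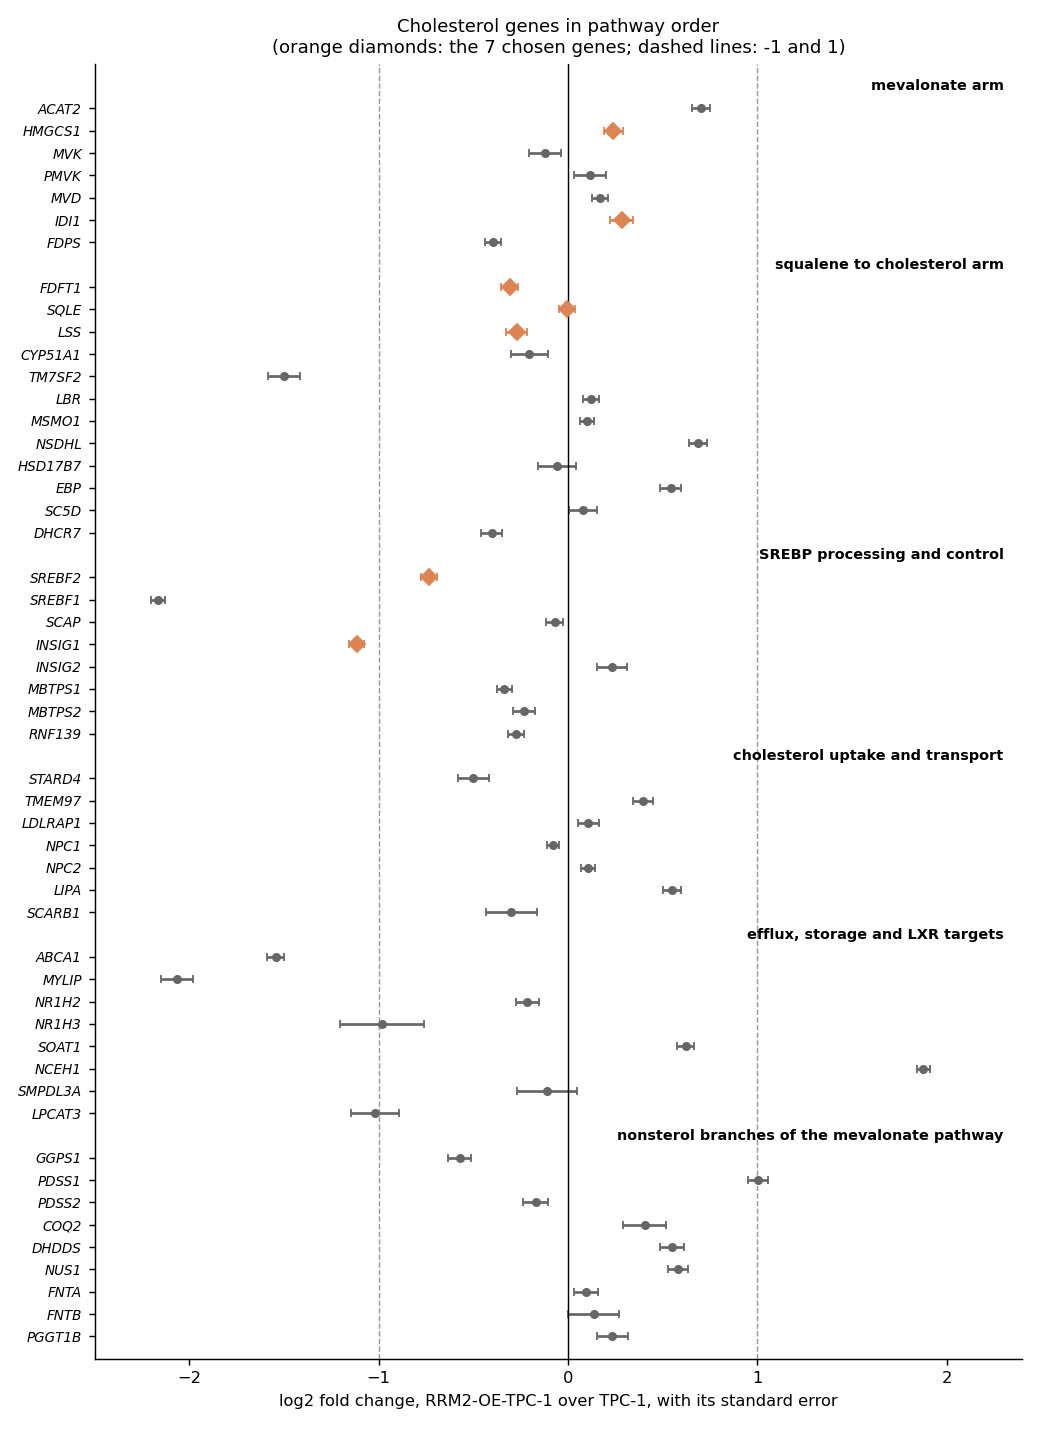
log2 fold change of tested genes of the lists (*RRM2*-OE-TPC-1 over TPC-1) with its standard error, in pathway order, orange diamonds marking the 7 genes. The enzymes scatter on both sides of 0, with *TM7SF2* at -1.50 apart from the rest, and *SREBF1* at -2.17, *MYLIP* at -2.06, *ABCA1* at -1.54 and *INSIG1* at -1.12 lie past the dashed line at -1.

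Around *SREBF2* and *INSIG1*, the list of SREBP processing and control held 7 other tested genes. On adjusted p alone 1 rose and 5 fell (14.3% and 71.4%, beside 34.9% and 32.7% of all tested genes). Scaled to library totals, 0 rose and 6 fell (85.7%, beside 31.3% and 36.5%). There *INSIG2* no longer passed (adjusted p = 0.0908 from limma) and *SCAP* did at 0.0427. *SREBF1*, which encodes SREBP1 and governs mainly fatty acid synthesis, had 70.6, 67.5 and 70.1 FPKM in TPC-1 and 15.8, 14.9 and 15.5 FPKM in *RRM2*-OE-TPC-1. It was the only called gene of this list (log2 fold change -2.17, SE 0.0361, limma adjusted p = 9.81e-09), and the ratio of *SREBF2* to *SREBF1* went from 0.869 ± 0.0143 to 2.36 ± 0.110 (SD, n = 3 each). The protease genes *MBTPS1* and *MBTPS2*, whose products cleave SREBPs, fell by 0.34 and 0.23 on the log2 scale, and *RNF139*, of a ubiquitin ligase, by 0.28 (limma adjusted p = 1.41e-04, 9.16e-03 and 5.16e-04). These 3 genes were named after their values were seen.

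*SCAP*, the escort of SREBPs, overlapped between the groups, at 13.4 ± 0.178 and 12.8 ± 0.588 FPKM (SD, n = 3 each; log2 fold change -0.070, limma adjusted p = 0.197). *INSIG2*, the paralog of *INSIG1*, went the other way, from 3.50 ± 0.189 to 4.14 ± 0.320 FPKM (SD, n = 3 each; log2 fold change 0.23, limma adjusted p = 0.0308), but missed the threshold in 6 of 14 other settings, among them without TPC-1 replicate 1, TPC-1 replicate 2, *RRM2*-OE-TPC-1 replicate 1 or *RRM2*-OE-TPC-1 replicate 3. The ratio of *INSIG1* to *INSIG2* was lower in each *RRM2*-OE-TPC-1 library, from between 6.76 and 7.80 in TPC-1 to between 2.55 and 3.09 in *RRM2*-OE-TPC-1.

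**Figure D3:**
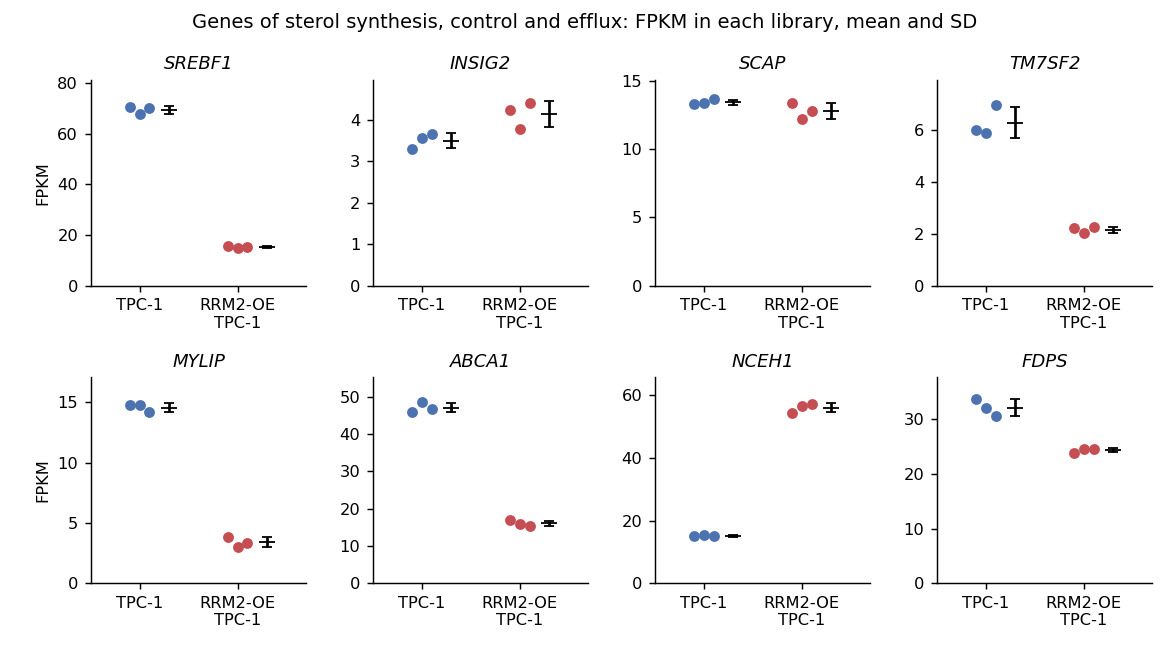
FPKM in each library (points, replicates 1 to 3 from left to right) with mean and SD (n = 3) for 8 genes of sterol synthesis, control and efflux. Axes start at 0. *SREBF1*, *TM7SF2*, *MYLIP*, *ABCA1* and *FDPS* are lower and *NCEH1* is higher in each *RRM2*-OE-TPC-1 library, and *SCAP* overlaps.

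Uptake is the other route by which SREBP2 supplies cholesterol. Of the 8 tested genes of the uptake and transport list 3 rose and 2 fell on adjusted p alone, or 2 and 4 when scaled to library totals, and none was called with the scaling of the authors. *STARD4*, a sterol carrier, fell by 0.50, while *LIPA*, the lysosomal lipase that frees cholesterol from its esters, rose by 0.55 on the log2 scale (limma adjusted p = 8.07e-04 and 1.87e-05). These 2 genes were named after their values were seen.

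Efflux and storage genes include the targets of LXR, the receptor of oxysterols. Of 8 tested, 1 was called higher and 3 lower, and 2 rose and 5 fell on adjusted p alone. *MYLIP*, an LXR target that encodes a ubiquitin ligase, fell from 14.6 ± 0.347 to 3.42 ± 0.430 FPKM, and *ABCA1*, the cholesterol exporter, from 47.1 ± 1.30 to 16.1 ± 0.730 FPKM (SD, n = 3 each), with log2 fold changes of -2.06 and -1.54 (limma adjusted p = 4.62e-07 and 7.58e-08). *LPCAT3*, a lysophospholipid acyltransferase, fell by 1.02 on the log2 scale (limma adjusted p = 1.81e-04), but by 0.89 without *RRM2*-OE-TPC-1 replicate 1, and *EMG1* on the opposite strand, at 8.04 FPKM, covers 65.6% of its exon bases, so its value is uncertain. *NCEH1*, a cholesteryl ester hydrolase, had 14.9, 15.5 and 15.0 FPKM in TPC-1 and 54.3, 56.4 and 57.2 FPKM in *RRM2*-OE-TPC-1 (log2 fold change 1.88, limma adjusted p = 1.22e-08). *SOAT1*, which esterifies cholesterol for storage and was named after its values were seen, rose by 0.62 (limma adjusted p = 6.32e-06).

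The branches that leave the mevalonate pathway for ubiquinone, dolichol and prenylated proteins had 9 tested genes. Of these, 5 rose and 2 fell on adjusted p alone (55.6% and 22.2%, beside 34.9% and 32.7% of all tested genes). Scaled to library totals, 4 rose and 2 fell (44.4% and 22.2%, beside 31.3% and 36.5%). There *PGGT1B*, named after its values were seen, no longer passed (limma adjusted p = 0.0896). *PDSS1*, of the ubiquinone side chain, was the only one called (4.42 ± 0.123 and 8.97 ± 0.350 FPKM, SD, n = 3 each; log2 fold change 1.00, limma adjusted p = 1.62e-06), at the threshold itself: it was below 1 in 7 of 14 other settings, among them without TPC-1 replicate 1, TPC-1 replicate 2, *RRM2*-OE-TPC-1 replicate 1 or *RRM2*-OE-TPC-1 replicate 3. *ABI1* on the opposite strand, at 15.0 FPKM, covers 10.5% of its exon bases. *GGPS1*, which makes geranylgeranyl pyrophosphate and was named after its values were seen, fell by 0.57 on the log2 scale (limma adjusted p = 7.43e-05).

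Genes outside the lists were searched for the pattern nearest to the mean of the 6 members other than *SREBF2*, as the root mean square difference of centred log2 values over the 6 libraries. The nearest were *EIF3E* (0.0136), *PTPRA* (0.0150), *MED13* (0.0166), *NME4* (0.0174) and *NPTN* (0.0185), with log2 fold changes between -0.22 and -0.17. The 6 members went both ways, from 0.28 for *IDI1* to -1.12 for *INSIG1*, so their mean stands for no single one of them. The genes found thus share a small decrease, and no link to the pathway is read from it.

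**Figure D4:**
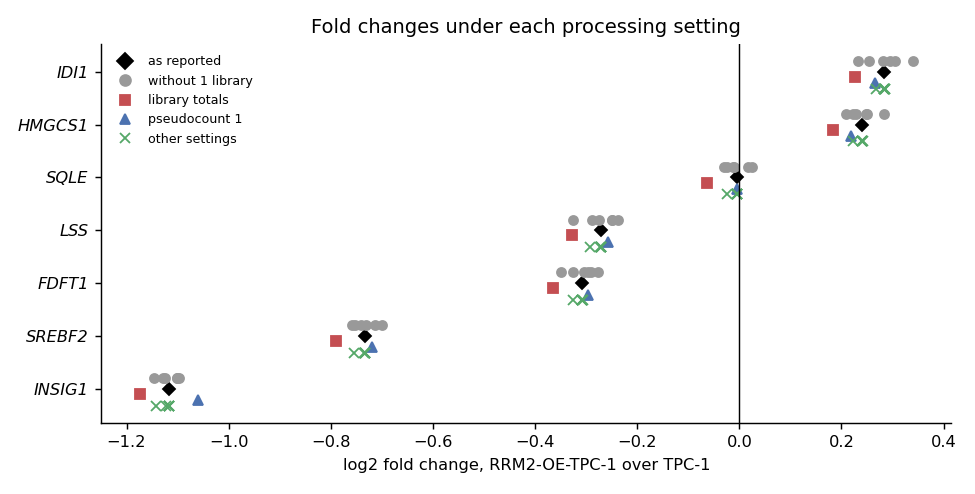
log2 fold change of each of the 7 genes as reported and under 14 other settings: 1 library left out, scaling to library totals, a pseudocount of 1 and others. The points of 6 genes stay on 1 side of 0, and those of *SQLE* lie between -0.063 and 0.026.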

How the data were processed

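RNA sequencing of 3 libraries of wild strain TPC-1 and 3 of *RRM2*-OE-TPC-1 was analysed. According to the methods and the submitters' processing notes, the authors cleaned reads with fastp, aligned them with HISAT2 2.0.5 to GRCh38.p14, counted them with featureCounts 1.5.0 and deposited FPKM values. The methods state poly(A) selection, whereas the labels state ribosomal RNA removal and RNase R digestion. Identifiers and positions are those of GENCODE 29. Multiplied by gene length, 100% of values were whole multiples of 1 read (tolerance 0.01), which gave the reads. The depth behind the deposited values followed median-of-ratios factors of these reads, with scaled ratios of 0.9988 to 1.0010 over the libraries. Library totals of reads on genes were 0.950 to 1.003 of that depth.

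The members and lists were chosen with earlier results of these data known. Genes with at least 0.5 FPKM and 10 reads in 3 libraries (13621) were tested on log2(FPKM + 0.1) with limma 3.58.1 (eBayes with trend) in R 4.3.3, with Benjamini-Hochberg adjustment over all of them. The procedure was tested on simulated data in which far fewer genes changed than passed here, so that test does not check the calls under the conditions of these data. With 3 against 3, an exact permutation test cannot give a two-sided p under 0.1. Tables and figures used matplotlib 3.10.9, scipy 1.17.1, pandas 2.3.3 and numpy 2.4.6 in Python 3.11.15. Named were the 7 genes, called genes of the lists, 13 listed genes set by name, *RRM2* and the 5 nearest in pattern. Part of these genes are left out of the text and figures, though counts and sums over the lists include them. Alternatives were other pseudocounts, filters and scalings, voom on recovered reads, a replicate block and each library left out.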

Additional observations from a re-analysis of the deposited data

How the results depend on the processing

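Over 14 other settings the log2 fold changes of the 7 genes moved by less than the spread between replicates in 94 of 98 cases. Part of these cases could not move: other filters and the replicate block leave a fold change as it is, such as 0.240 for *HMGCS1*. Median-of-ratios factors nearly repeat the deposited scaling. The count of 94 thus overstates how far the values were put to the test. The exceptions were *INSIG1*, at -1.06 with a pseudocount of 1 and -1.17 when scaled to library totals, and *SREBF2* at -0.79 and *SQLE* at -0.063 under library totals. Library totals lowered all 7 by nearly the same amount, such as *HMGCS1* from 0.240 to 0.183 and *FDFT1* from -0.307 to -0.365. The exceptions under that scaling were the genes with the smallest spread between replicates. Of 1560 called genes in all, 610 were higher and 950 lower. With a pseudocount of 1 there were 716, of which 303 were higher and 413 lower, and with no filter on low values 920 were higher. For 16 genes of the lists, 206 of 224 values kept their direction and their side of the threshold, 15 fell short of it and 3 passed it. Among the last were *CYP51A1* (-0.26) and *SCAP* (-0.13), under library totals. Replicate numbers did not pair the libraries: deviations of same-numbered libraries correlated at -0.0086, 0.053 and -0.014. With a replicate block, 610 genes were called higher and 956 lower, 1566 in all. For *HMGCS1*, *IDI1* and *LSS*, the nearest libraries of the 2 groups had overlapping counting intervals. For *IDI1* and *LSS*, some TPC-1 libraries also differed from each other beyond these intervals, and the part of depth was not tested.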
